A study of Mus musculus with 2 samples.

Results

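The interferon-inducible GTPases described here are 10 genes chosen by symbol, all present among the 31053 measured features: Igtp, Irgm1, Iigp1, Tgtp1, Tgtp2 and Ifi47 of the immunity-related GTPase (IRG) family, and Gbp2, Gbp3, Gbp6 and Gbp7 of the guanylate-binding protein (GBP) family. They were measured in splenic CD8 T cells of wild-type C57BL/6J mice by droplet single-cell RNA sequencing from the 5′ end of each molecule. All CD8 T cells isolated from CD45.1 donors of 3 months were given to CD45.2 recipients of 24 months, and spleens were taken 1 month later, when the hosts were 25 months old. The old recipient library held sorted CD45.2+ CD3e+ CD8a+ host cells and the young donor library held CD45.1+ CD3e+ CD8a+ transferred cells, both therefore from an old host that had received a transfer. There was 1 library per group, so no difference between them was tested, and group and library cannot be told apart. The labels did not say whether both populations came from 1 mouse or whether mice were pooled.

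After filtering, 5341 recipient cells with 38393634 unique molecular identifiers (UMIs, 1 per captured molecule) and 7451 donor cells with 58900053 UMIs were kept, with medians of 7024 and 7878 UMIs per cell. In these libraries 55 kept barcodes occurred in both, 1.03% of recipient and 0.738% of donor cells. Cd3e, Cd8a and Cd8b1 marked the cells as CD8 T cells: Cd8b1 stood at 1548 CPM (UMIs of a gene per 1000000 UMIs of the library) in recipient cells and 1520 in the donor, while Cd4 had 0 and 3 UMIs. Over all 4 dendritic cell markers the summed level was 0.0781 CPM in recipient cells and 0.0170 in the donor, and over 6 myeloid markers 7.92 and 7.39. Of 4 B cell markers, Cd79b alone gave 24.5 and 24.4 of the summed 24.8 and 24.5 CPM.

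Interferons induce these GTPases strongly in mouse cells. Interferon gamma acts on genes through gamma-activated sequences (GAS), and type I interferons act mainly through interferon-stimulated response elements (ISRE). The IRG effectors Iigp1 (Irga6), Tgtp1 and Tgtp2 (Irgb6) and Ifi47 (Irgd) load onto vacuoles that hold pathogens, whereas Igtp (Irgm3) and Irgm1 sit on the cell's own membranes and hold the effectors in check. GBPs are larger GTPases that assemble on such vacuoles and on bacteria. In mouse CD4 T cells, Irgm1 is known for keeping cells alive under interferon gamma. Ly6a encodes the surface protein Sca-1, which interferons also induce, and Ifit3 is a textbook target of type I interferon.

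The bases upstream of RefSeq gene starts are shown because 3 members carry a GAS and an ISRE side by side there. RefSeq promoters on GRCm38.p6 were found for 8 of the 10 members (not for Iigp1 and Gbp6), and the 250 bases before each start were searched on both strands for TTCNNNGAA (GAS) and GAAANNGAAA (ISRE). The shown stretches are the 120 bases next to the start, 5′ to 3′ in the direction of the gene, with matches in capitals. They lie at chr11:58199436-58199555 (plus strand) for Igtp, chr11:58214857-58214976 (plus strand) for its family neighbour Irgm2, chr11:48992247-48992366 (minus strand) for Tgtp1, chr11:49064213-49064332 (minus strand) for Tgtp2, chr3:142530216-142530335 (plus strand) for Gbp7 and chr3:142559924-142560043 (plus strand) for Gbp3.
Igtp: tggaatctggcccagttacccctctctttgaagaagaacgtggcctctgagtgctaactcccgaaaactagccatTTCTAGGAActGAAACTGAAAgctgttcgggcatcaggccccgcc
Irgm2: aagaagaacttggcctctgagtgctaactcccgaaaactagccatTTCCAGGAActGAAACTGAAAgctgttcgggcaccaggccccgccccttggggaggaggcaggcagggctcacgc
Tgtp1: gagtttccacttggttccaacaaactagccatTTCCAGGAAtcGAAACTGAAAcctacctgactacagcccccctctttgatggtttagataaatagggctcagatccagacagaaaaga
Tgtp2: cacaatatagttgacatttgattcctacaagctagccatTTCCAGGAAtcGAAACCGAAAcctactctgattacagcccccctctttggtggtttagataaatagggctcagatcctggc
Gbp7: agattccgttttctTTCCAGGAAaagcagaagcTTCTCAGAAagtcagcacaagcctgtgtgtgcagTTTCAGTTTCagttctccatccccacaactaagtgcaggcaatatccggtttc
Gbp3: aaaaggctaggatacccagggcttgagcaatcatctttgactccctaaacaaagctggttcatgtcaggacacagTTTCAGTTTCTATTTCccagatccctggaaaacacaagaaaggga

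An ISRE match was present in 7 of the 8 members with a promoter (all but Ifi47), against 2.98% of 32851 mouse promoters. A GAS match was present in 4 (Igtp, Tgtp1, Tgtp2 and Gbp7), against 7.02%. In Igtp, Tgtp1 and Tgtp2 the GAS ended at most 5 bases before the ISRE. A GAS and an ISRE at most 5 bases apart, in either order, were found in 7 promoters of all (0.0213%), these 3 and that of Irgm2 among them. Counted from 1 at the 5′ end of the ISRE, the Tgtp1 and Tgtp2 elements differ by T6C (Tgtp1 to Tgtp2). Gbp3 had overlapping ISRE matches on the other strand, as Irgm1 had on its own strand. A second RefSeq start of Gbp3 had no match. Gbp2 had 1 ISRE starting 59 bases upstream. Ifit3 had 2 ISRE matches and no GAS in its window. Where a GENCODE gene starts further upstream than the RefSeq start, as for Irgm1, Gbp2, Gbp3, Tgtp1 and Irgm2, the window reaches into that gene. The shown stretches of Tgtp1 and Irgm2 lie wholly inside it. Their GENCODE genes start at chr11:48994172 (minus strand) and chr11:58199618 (plus strand). These are matches of letters, not binding sites.

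All 10 GTPases had a higher level in recipient than in donor cells, and 4 of them, Iigp1, Tgtp1, Tgtp2 and Gbp6, were at least 25% higher; none was 20% lower, the same fold in the other direction. Across the 9551 features with at least 200 UMIs over both libraries, 60.4% had a higher level in the recipient, 5.8% were at least 25% higher and 4.43% at least 20% lower, which is called past the fold below. The median log2 ratio of recipient over donor was 0.29 over the members and 0.04 over all tested features. The summed level was 689.9 CPM in recipient cells and 569.7 in the donor. Brackets below give 95% exact Poisson intervals of a level, and for a ratio the exact interval for 2 Poisson counts; they cover counting error only. CPM levels are compared between libraries and not between genes.

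Among the regulators, Igtp (chr11:58199556-58207591) stood at 93.6 CPM [90.5, 96.7] in recipient cells and 75.1 [72.9, 77.4] in the donor. Its log2 ratio of 0.32 [0.25, 0.38] was just short of that fold. Irgm1 (chr11:48861968-48871683) stood at 52.0 [49.8, 54.4] in the recipient and 43.2 [41.5, 44.9] in the donor (log2 ratio 0.27 [0.18, 0.35]). Both regulators were therefore higher in the recipient by more than their counting error.

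The effector Iigp1, on chromosome 18, was the member with the largest ratio. Its count was 329 UMIs in recipient cells and 278 in donor cells, or 8.57 [7.67, 9.55] and 4.72 [4.18, 5.31] CPM, a log2 ratio of 0.86 [0.63, 1.10]. Of all tested features, 98.9% had a lower ratio. Tgtp1 (chr11:48985327-48994172) stood at 67.7 [65.2, 70.4] in the recipient and 45.6 [43.9, 47.3] in the donor (log2 ratio 0.57 [0.49, 0.65]). Tgtp2 (chr11:49057194-49064206) stood at 101 [97.9, 104] in the recipient and 70.4 [68.3, 72.6] in the donor (log2 ratio 0.52 [0.46, 0.58]). The 2 Tgtp transcripts are near copies, with 2804 of 2810 aligned bases identical (99.8%), so how reads were split between them is uncertain. Ifi47 (chr11:49076587-49096974), which lies next to the Tgtp genes, stood at 239 [234, 244] in the recipient and 218 [214, 222] in the donor. Its log2 ratio of 0.13 [0.09, 0.17] was much smaller than that of its neighbours.

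Of the GBPs, Gbp6 (chr5:105270702-105293698) had the largest ratio, with 10.2 [9.17, 11.2] CPM in recipient cells and 6.91 [6.25, 7.62] in the donor (log2 ratio 0.56 [0.35, 0.76]). Its transcript is 98.4% identical to that of Gbp10, so reads may be shared there too. The cluster of Gbp7, Gbp3 and Gbp2 on chromosome 3 (chr3:142530342-142638008) showed small differences. Gbp2 stood at 51.4 CPM in recipient cells and 45.04 in the donor (log2 ratio 0.19 [0.11, 0.28]). Gbp3 stood at 18.2 in the recipient and 16.4 in the donor (log2 ratio 0.15 [0.01, 0.29]), and Gbp7 at 48.3 and 44.5, a log2 ratio of 0.12 [0.03, 0.20].

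**Figure D1:**
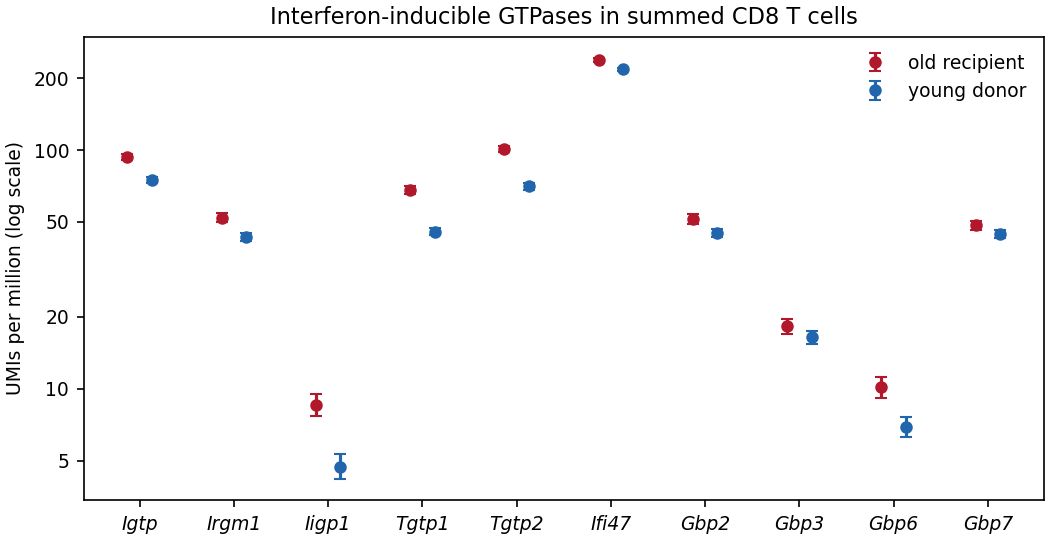
Level of each GTPase in CPM (log axis) over all kept cells of the old recipient library (red, left) and the young donor library (blue, right), with 95% exact Poisson intervals for counting error. Every red point lies above its blue partner, by the widest gap for Iigp1 (8.57 in the recipient, 4.72 in the donor) and by a narrow one for Gbp7 (48.3 and 44.5).

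Other interferon genes differed less by their medians. Of 10 other IRG and GBP genes with enough UMIs, Gbp9 (log2 ratio 0.47) and Gbp10 (0.87) were past the fold higher and none was past it lower, with a median log2 ratio of 0.14. The others tested were Gbp4 (0.27), Gbp8 (0.26), Irgm2 (0.16), Gbp5 (0.12), 9930111J21Rik1 (0.08), Gvin1 (0.03), 9930111J21Rik2 (-0.04) and Irgq (-0.08). Gm4951, Irgc1, F830016B08Rik and Gbp2b had 45, 23, 3 and 2 recipient UMIs and 22, 27, 3 and 0 donor UMIs and were below the filter. Gbp11 and Gm12250 were not analysed here.

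Of 29 tested genes of a type I interferon list, 7 were past the fold higher in the recipient and 2 past it lower, with a median log2 ratio of 0.13. Ifi27l2a had a log2 ratio of 0.61, Slfn5 0.63 and Oasl1 0.79, whereas Mx1 had -0.38 and Oasl2 -0.36; Mx1 and Oasl2 encode antiviral proteins of the same response. Ifit3 itself had a log2 ratio of 0.12 [-0.04, 0.28]. Of 15 tested interferon gamma targets other than GTPases, such as the immunoproteasome and peptide transport genes Psmb8 (0.12) and Tap1 (0.30), 1 was past the fold higher and none lower (median 0.12). That 1 gene was Serpina3g (0.53), a serpin also abundant in Gzmk-high cells. Of 8 MHC class I genes, 3 were past the fold higher, H2-Q6 (0.52), H2-Q7 (0.45) and H2-T23 (0.36), with a median of 0.22.

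Among 15 receptor and signalling genes, 2 were past the fold higher and none lower. Ifngr2, the second chain of the interferon gamma receptor, had 611 recipient UMIs and 404 donor UMIs, a log2 ratio of 1.21 [1.03, 1.40]. Ifngr1, the ligand-binding chain, had a log2 ratio of -0.22 [-0.26, -0.18]. Ifng, the ligand gene, stood at 13.7 CPM in recipient cells and 9.73 in the donor. Autophagy and ubiquitin-like partner genes, with which IRG proteins work in other mouse cells, gave 0 of 9 tested past the fold in either direction (median 0.08). Gabarapl1 of the same list, with 115 recipient UMIs and 71 donor UMIs, was below the filter. Its log2 ratio was 1.31 [0.87, 1.76]. Ly6a had a log2 ratio of 0.15 [0.11, 0.20] while 2 of the 4 tested Ly6 genes, Ly6c2 and Ly6k, were past the fold lower at -0.84 and -0.37.

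Cells were grouped into clusters without using the members or other interferon-induced genes, to see where the GTPases were high. This gave 14 clusters, 12 of them with at least 50 cells in each library. The summed level of the members ranged from 408 to 802 CPM over these clusters in the recipient and from 420.5 to 767 in the donor. High levels were found in Ccr9-high naive-like cells (cluster 5), at 802 [786, 819] in the recipient and 763 [739, 787] in the donor, and in naive-like cluster 6, at 714 and 726. They were not confined to naive-like cells. Helios or Treg-linked-like cluster 4 stood at 779 in the recipient and 607 in the donor, and immediate-early-like cluster 12 at 611 and 767. Age-associated-like cluster 1 stood at 673 [590, 764] and 744 [632, 869]. Cluster 2, led by Dapl1, Plac8 and Slpi and left unnamed, stood at 745 and 712; Tgtp1, Igtp and Ly6a were among its 10 leading genes although they were not used to build it. Gzmk-high age-associated-like cells (cluster 0) stood at 674 [650, 698] in the recipient and 660 [637, 683] in the donor. These cells were shallower, with medians of 4533.5 and 4522.5 UMIs, than those of cluster 5, with 7438 and 7687, and the part of depth in differences between clusters was not tested. Low levels were found in central memory-like cells (cluster 3, 485 and 464), in innate or NK-like cells (454 and 422) and in cluster 8, led by Gzmm, Klra3 and S1pr5, at 408 [385, 433] in the recipient and 420.5 [411, 430.2] in the donor. Cluster 8 was left unnamed but also had central memory features. Of 8 central memory markers, 7 were at least 0.5 log2 higher in it than in other cells (mean 0.98), against 3 in cluster 3 (mean 0.37).

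In order of their recipient level, each cluster's interval overlapped that of the next. In the donor the order had clear steps after cluster 2 and after the cycling-like cells, below which the central memory-like, innate or NK-like and cluster 8 cells formed a low group. The names are rebuilt from marker genes and need not be those of the study.

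The members did not share 1 pattern over these clusters. Tgtp1 stood at 99.3 CPM in the recipient's naive-like clusters 5 and 6 together and at 14.5 in its age-associated-like clusters 0 and 1, a log2 ratio of 2.77 [2.43, 3.14]. Donor naive-like and age-associated-like cells had 85.4 and 9.21, a log2 ratio of 3.21 [2.79, 3.66]. Iigp1 followed it, with naive-like over age-associated-like log2 ratios of 1.52 in the recipient and 1.73 in the donor. Tgtp2 (0.75 and 0.63) and Igtp (0.63 and 0.95) leaned the same way by less. Ifi47 (0.05 and -0.02) stood at like levels in both classes, and so did Irgm1 in the recipient (-0.04), with -0.29 in the donor.

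Gbp3 and Gbp7 ran the other way. Gbp3 stood at 11.8 CPM in naive-like and 40.2 in age-associated-like cells of the recipient, and at 12.5 and 43.0 in the donor, log2 ratios of -1.77 and -1.79. Gbp7 had log2 ratios of -1.24 and -1.25 for the same comparison, and Gbp2 -0.39 and -0.13. Gbp6 gave 0.57 [0.07, 1.11] in the recipient and 0.07 [-0.44, 0.61] in the donor. So among these GTPases Tgtp1 and Iigp1 were high where Gbp3 and Gbp7 were low, in both libraries.

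The near copies Tgtp1 and Tgtp2 were split unequally between clusters. Tgtp1 gave 17.1% [13.5, 21.1] of the UMIs of both genes in recipient Gzmk-high cluster 0 and 44.0% [42.2, 45.9] in recipient naive-like cluster 5. In the donor the shares were 12% [8.89, 15.7] and 45.7% [42.7, 48.6]. In Gzma- and Zeb2-high effector memory-like cells (cluster 9) Tgtp1 gave 6.67% of 90 UMIs in recipient cells and 10.8% of 37 in the donor. The aligned transcripts differ at 6 positions, at bases 39, 543, 681, 1002, 1008 and 1783 of the Tgtp1 transcript, and which of these positions the reads covered was not analysed here.

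**Figure D2:**
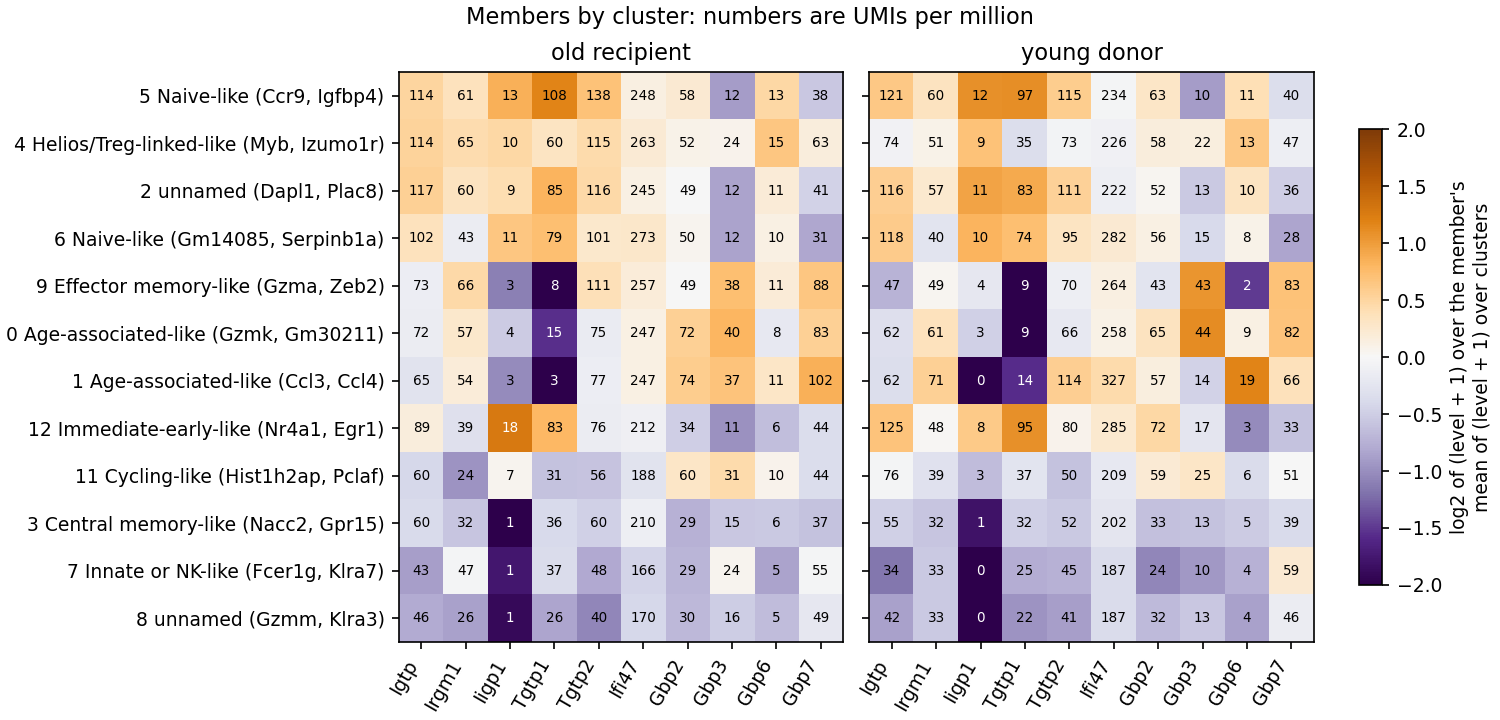
Level of each GTPase in CPM (numbers) in the 12 compared clusters, old recipient left and young donor right, with rows ordered by the recipient's summed level and each cluster's leading genes in brackets. Colour gives the log2 of (level + 1) over the mean of (level + 1) for that member, and shows Tgtp1 and Iigp1 orange in naive-like rows and purple in Gzmk-high rows, with Gbp3 and Gbp7 the reverse.

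Receptor and ligand genes differed over the same clusters. In cluster 5, Ifngr2 stood at 30.04 CPM in recipient cells and 25.7 in donor cells, against 1.12 and 0.40 in Gzmk-high cluster 0. Ifng was largely in the Gzmk-, Ccl3- and Gzma-high clusters, at 58.4 in the recipient and 59.0 in the donor in cluster 0, with 0.363 and 0 in cluster 5. The type I list was highest in cluster 0 among the clusters of over 100 cells in each library, at 2003 in the recipient and 1942 in the donor, against 1131 and 1035 in cluster 5.

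The libraries differed in their share of these clusters. Naive-like cluster 5 made up 27.3% of the recipient's cells and 9.25% of the donor's, and cluster 8, with low GTPase levels, 6.35% and 27.2%. Within most clusters the library difference was small; clusters 4 (log2 ratio 0.36) and 12 (-0.33) were the exceptions past the fold. The summed level was higher in the recipient in 7 of the 12 clusters; the interval of the ratio lay above 0 in 3, below 0 in 1 and held 0 in 8. When the donor's clusters were weighted to the recipient's cell numbers, the log2 ratio of the members' sum was 0.067, against 0.28 unweighted, and the median over members was 0.055, against 0.29. So weighted, the log2 ratio was 0.22 for Tgtp2, 0.21 for Gbp6, 0.19 for Tgtp1 and 0.17 for Iigp1, and 0.04 for both regulators. Ifi47 had 0.01 and Gbp2 -0.05. None of the 10 was past the fold after this weighting. The share of all features past the fold was not computed with this weighting, so that count has no share beside it.

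Per cell, few members were captured at once. For equal depth each cell was thinned to 3500 UMIs, which left out 470 recipient (8.80%) and 431 donor cells (5.78%) that were shallower. A thinned cell had a UMI of 1.82 members on average in the recipient and 1.55 in the donor. Cells without any member made up 15.3% of the recipient library and 20.1% of the donor library. At least 5 of the 10 were found in 204 of 4871 recipient cells (4.19% [3.64, 4.79], exact binomial) and in 176 of 7020 donor cells (2.51% [2.15, 2.90]). At least 7 were found in 22 recipient cells (0.452%) and 17 donor cells (0.242%), and 9 members in 1 cell of each library. Without thinning, 17.4% of recipient and 14.1% of donor cells had at least 5.

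The summed member count per thinned cell had a variance 2.17 times its mean in the recipient and 2.02 times in the donor. Its median was 2 UMIs in both libraries, its 99th percentile 11 UMIs in recipient cells and 9 in the donor, and its maximum 26 and 30. The tenth of cells with the highest sums held 30.9% of member UMIs in recipient cells and 31.6% in the donor.

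**Figure D3:**
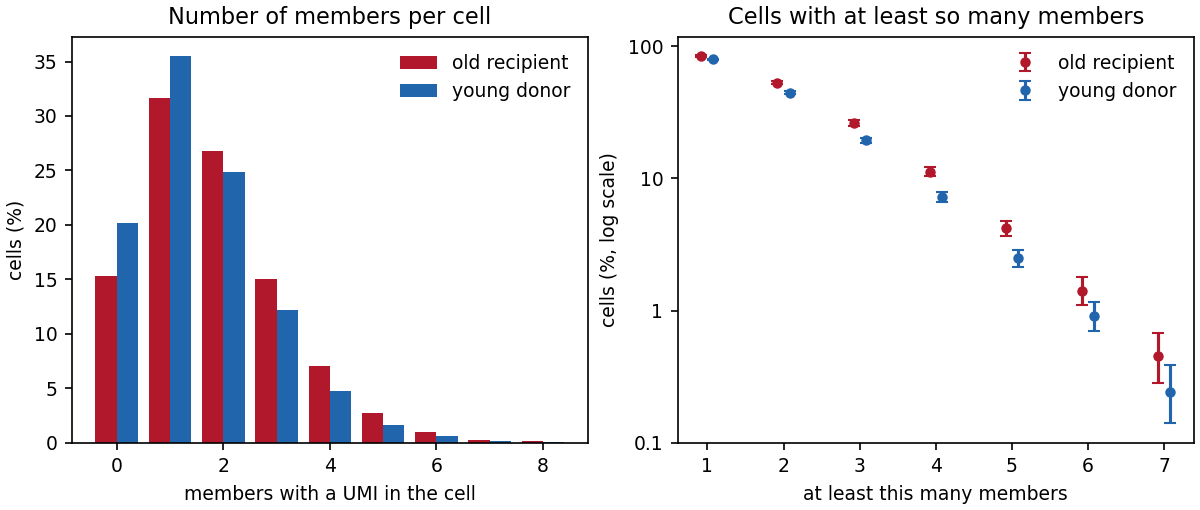
Left, percent of thinned cells by the number of GTPase genes with a UMI, old recipient (red, left bars) and young donor (blue, right bars); right, percent of cells with at least so many members on a log axis, with 95% exact binomial intervals. The recipient points lie above the donor points at every number shown, as at 5 members (4.19% of recipient and 2.51% of donor cells), and the intervals meet from 6 members on.

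Cells with at least 5 members lay in the clusters with high levels. Cluster 5 held 48.5% of them in the recipient, where it made up 28.8% of thinned cells, and 18.8% in the donor, where it made up 9.50%. Cluster 2 held 11.8% in the recipient and 33.5% in the donor, where it made up 11.8% and 15.6% of thinned cells. In naive-like cluster 5 the share of cells with at least 5 members was 7.05% [5.76, 8.51] in the recipient and 4.95% [3.43, 6.88] in the donor. In cluster 4 it was 7.52% [5.17, 10.5] in the recipient, where the cluster held 15.2% of such cells, and 3.65% [1.59, 7.07] in the donor. The recipient's share was the lower one in cluster 0 (2.14% in the recipient, 3.36% in the donor), cluster 2 (4.17% and 5.38%), cluster 6 (3.47% and 4.01%), cluster 7 (0.495% and 1.15%), cluster 8 (0.305% and 0.449%) and cluster 12 (3.61% and 6.15%), with overlapping intervals in each.

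Pairs of members varied together weakly. Pearson's r of log(1 + count) across thinned cells had a median of 0.074 over the 45 pairs in the recipient (n = 4871 cells) and 0.060 in the donor (n = 7020 cells). IRG pairs had medians of 0.098 in the recipient and 0.11 in the donor, and GBP pairs 0.062 and 0.025. The pair with the highest r was Igtp and Tgtp1 in both libraries, at 0.17 in the recipient and 0.18 in the donor, and those genes have distinct transcripts. All cells of a library share its preparation, and most counts are 0 or 1, so these values are descriptions.

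Against the sum of the other 9 members, Igtp had r of 0.24 in the recipient and 0.20 in the donor, the highest values found. Gbp3 had the lowest, at 0.030 and 0.052. For Tgtp1 and Tgtp2 the near copy was left out of the sum too, so their r is not the same measure. Tgtp1 had 0.16 in the recipient and 0.15 in the donor, and Tgtp2 0.17 and 0.16. In terms of shares, Igtp was found in 48.9% of recipient cells with an Iigp1 UMI and 23.7% of those without, and in 52.8% and 19.4% of such donor cells. For cells with and without Gbp3, Igtp was found in 26.1% and 24.3% in the recipient and in 26.0% and 19.6% in the donor.

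**Figure D4:**
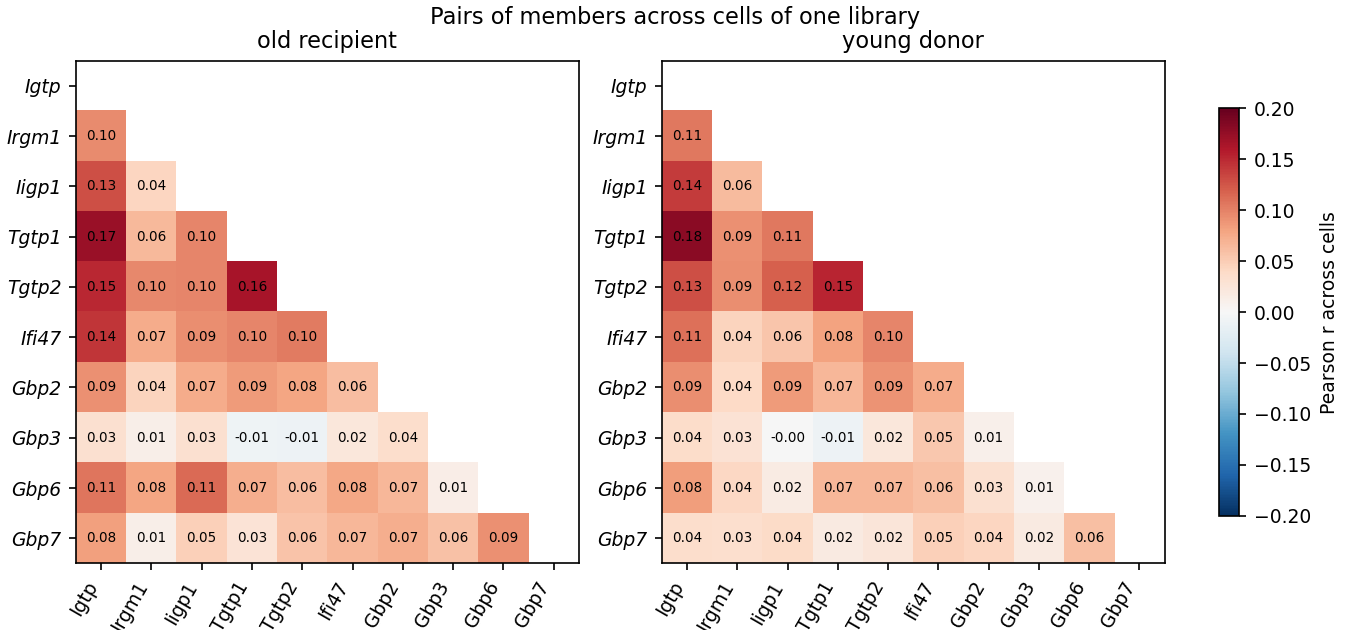
Pearson's r of log(1 + count) for each pair of GTPases across cells thinned to 3500 UMIs, old recipient (left, 4871 cells) and young donor (right, 7020 cells). The colour scale ends at -0.2 and 0.2, values near Igtp and the Tgtp genes reach 0.17 and 0.18, and the Gbp3 row stays near 0.

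The features most like the members' sum across cells were largely interferon-induced genes. Likeness was ranked by the lower of both libraries' r among 7788 features with a UMI in at least 2% of thinned cells of each library, whose median r was near 0. Isg15 (0.16 in the recipient, 0.18 in the donor), Ly6a (0.15 and 0.20) and Ifit3 (0.13 and 0.13) were near the top. The first 20 also held Ifit1, Rtp4, Zbp1, Ifi27l2a, Irf7, Slfn1, Igfbp4, Gbp4, H2-T23, Irf1, Isg20, Parp9, Irgm2, Usp18, Psmb8 and Ltb, with r of 0.09 to 0.18. Of the 20, 10 belong to the type I list and 2 are other IRG or GBP genes. Ifng had r of 0.0016 in the recipient and 0.0030 in the donor. The most opposite features, chosen after their values were seen, were Ccl5 (-0.13 and -0.15), Il2rb (-0.11 and -0.14) and Ly6c2 (-0.11 and -0.13), genes of memory cells.

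Cells with Ly6a more often held many members. At least 5 members were found in 6.43% [5.22, 7.81] of 1463 recipient cells with a Ly6a UMI and 3.23% [2.66, 3.88] of 3408 without. In the donor they were found in 4.97% [4.07, 5.99] of 2073 cells with Ly6a and 1.48% [1.16, 1.85] of 4947 without. With at least 4 Ly6a UMIs the shares were 8.06% [4.58, 12.95] of 186 recipient cells and 13.4% [8.95, 19.0] of 194 donor cells. Read the other way, Ly6a was found in 46.1% of recipient cells and 58.5% of donor cells with at least 5 members, and in 29.3% and 28.8% of the other cells. In cells without an Ifit3 UMI, Ly6a and the members' sum had r of 0.15 in the recipient and 0.18 in the donor. By cluster, with all thinned cells, this r was 0.14 and 0.22 in cluster 5. In cluster 7 it was 0.0099 in the recipient and 0.13 in the donor, and in cluster 9 -0.049 and 0.15. In cluster 1, with 54 and 15 thinned cells, it was -0.28 and -0.18. The other compared clusters had a positive r in both libraries.

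By member, the ratio of detection with Ly6a over detection without it was highest for Iigp1 and Gbp6, whereas r with Ly6a was highest for Igtp (0.12 in the recipient, 0.14 in the donor). Iigp1 was found in 4.17% of recipient cells with Ly6a and 2.05% of those without, and in 3.14% and 0.869% of such donor cells. Gbp6 was found in 4.99% and 2.46% in the recipient and in 3.67% and 1.76% in the donor. Gbp3 hardly differed, at 6.43% with and 6.13% without Ly6a in the recipient and 6.27% and 5.30% in the donor.

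Ifit3 was rare, and cells with several of its UMIs often held many members. It was found in 175 of the thinned recipient cells (3.59%) and 250 of the donor cells (3.56%). Of cells with at least 2 Ifit3 UMIs, 35.5% [19.2, 54.6] of 31 in the recipient and 34.2% [19.6, 51.4] of 38 in the donor had at least 5 members. With 1 Ifit3 UMI the shares were 5.56% and 7.08%, and with none 3.94% and 2.19%. Most cells with at least 5 members lacked it all the same: 9.31% [5.70, 14.2] of them held an Ifit3 UMI in the recipient and 15.9% [10.8, 22.2] in the donor. Median UMIs before thinning were alike over the number of members. They were 7443 in recipient cells with 0 or 1 member and 7212 in those with 5 or 6, and 8158 and 7738 in the donor. The r of Ifit3 with the members' sum differed between clusters. In Gzmk-high cluster 0 it was 0.27 in the recipient and 0.32 in the donor, and in naive-like cluster 5 it was 0.052 and 0.046.

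The summed type I list was graded with the members, with r of 0.22 in the recipient and 0.20 in the donor. Its genes do not weigh equally in the sum. Ifi27l2a alone gave 370 of the list's 1250 CPM in the recipient and 242 of 1066 in the donor. Cells with 0 or 1 UMI of the list had at least 5 members in 0.981% of recipient cells and 0.843% of donor cells, and cells with at least 13 in 15.2% [10.99, 20.3] of 250 and 19.3% [14.3, 25.1] of 218. In cells with 7 or more members, 22 in the recipient and 17 in the donor, the list averaged 20.5 and 34.8 UMIs, Ly6a was found in 40.9% and 88.2% and Ifit3 in 18.2% and 52.9%. No cell type that should lack these genes was present in enough cells to measure free RNA, so its part in the shares was not tested.

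**Figure D5:**
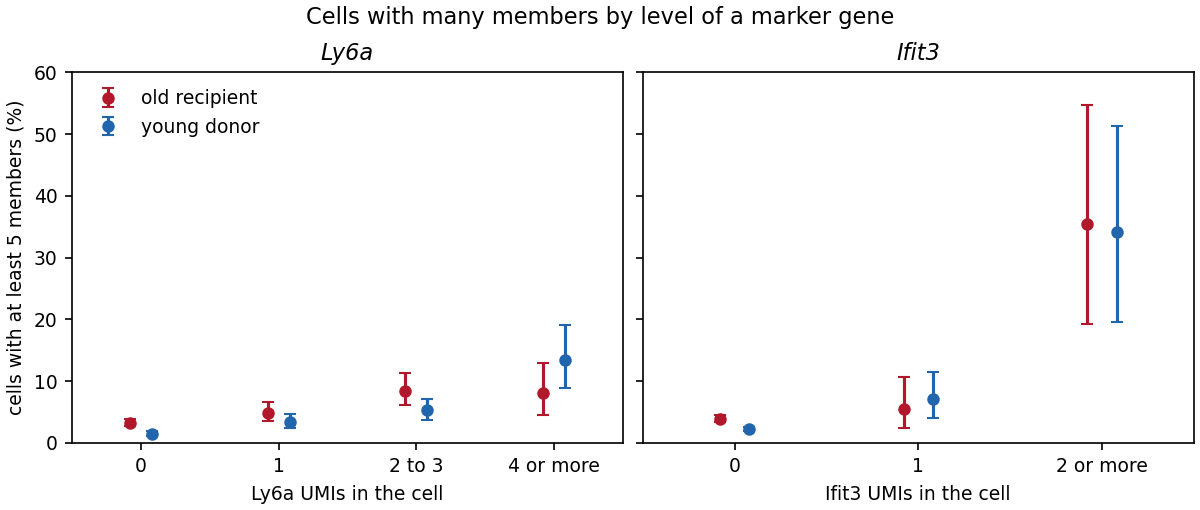
Percent of thinned cells with at least 5 GTPases by the cell's UMIs of Ly6a (left) and Ifit3 (right), old recipient (red, left points) and young donor (blue, right points), with 95% exact binomial intervals. The share is highest in cells with 2 or more Ifit3 UMIs (35.5% of recipient cells and 34.2% of donor cells), on 31 and 38 cells.

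When interferon-induced genes were kept for clustering, a small cluster high in them appeared in both libraries. It held 108 recipient cells (2.02% [1.66, 2.44]) and 156 donor cells (2.09% [1.78, 2.44]), with 1808 and 1627 CPM of summed members and 6934 and 6034 of the type I list. Igtp stood there at 308 in the recipient and 282 in the donor, Gbp6 at 64.2 and 48.6, Gbp3 at 32.7 and 37.3, and Ly6a at 506 and 616. Since the cluster was built from these genes, their height in it and its size are descriptions. Its cells came from several of the other clusters, the most from cluster 5 in the recipient (27.8%) and from cluster 2 in the donor (20.5%).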

How the data were processed

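The authors deposited UMI counts by gene and cell barcode for 2 libraries, not normalized. The submitters' processing notes name Cell Ranger, Seurat and mm10, and software version 3.0.2 stands in the count matrices, per the file headers; the annotation release is not given in the sources used here. Receptor libraries were not used here. Barcodes with under 500 genes or over 10% mitochondrial UMIs were left out (555 recipient, 587 donor), as were the highest doublet scores against simulated doublets (278 and 550). Depth after this was 38393634 and 58900053 UMIs, so 1 UMI was 0.0260 and 0.0170 CPM. Counts were summed per library and, with 1 library in each group, not tested. A feature was called past the fold (25% higher or 20% lower) where it had at least 200 UMIs over both libraries. Co-variation used log(1 + count) of cells thinned to 3500 UMIs with seed 7. Clusters came from scanpy 1.11.5 (2000 variable genes, 30 components, 15 neighbours, Leiden resolution 1) without members, interferon-induced, receptor, ribosomal or mitochondrial genes. Intervals are 95% and exact. Scripts were tested on simulated data. The members, gene lists and rules were chosen with earlier results of these data known. Named were all members, Ly6a, Ifit3, the other IRG and GBP genes, the 20 features most like the members' sum and list genes with at least 100 UMIs, apart from items not reported here; the opposite features and the marker checks were named after their values were seen. Alternatives covered cell filters, scaling, thinning depth, the number of members, the kind of correlation and the clustering.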

Additional observations from a re-analysis of the deposited data

Results flagged for a closer look

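The library difference in the members' summed level went opposite ways in 2 clusters, and the difference between them was not tested. In cluster 4, led by Myb, Izumo1r and Ctla4 and called Helios or Treg-linked-like, the sum stood at 779 CPM in the recipient (447 cells) and 607 in the donor (242 cells), a log2 ratio of 0.36 [0.26, 0.46]. Tgtp2 (115 in the recipient, 73.0 in the donor), Igtp (114 and 74.1), Ifi47 (263 and 226) and Tgtp1 (59.5 and 34.8) had the largest differences in CPM, while Gbp2 stood at 51.9 and 57.5. In cluster 12, led by the immediate-early genes Nr4a1, Egr1 and Egr3, the sum stood at 611 in the recipient (84 cells) and 767 in the donor (65 cells), a log2 ratio of -0.33 [-0.52, -0.14]. Gbp2 (34.4 in the recipient, 71.7 in the donor) and Ifi47 (212 and 285) were lower there. Ifit3 stood at 33.1 CPM in recipient and 19.9 in donor cells of cluster 4, and at 11.01 and 1.67 in cluster 12. The cluster 12 levels of Ifit3 rest on very few molecules. For scale, 8 UMIs of Gbp3 made 11.01 CPM in its recipient cells, and 2 UMIs of Gbp6 made 3.34 CPM in its donor cells.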

How the results depend on the processing

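No paired analysis was possible because each group had 1 library, and for the same reason no replicate could be left out. Of 88 values of single members and their sum under other settings, 87 were above 0. The exception was Gbp2 at the recipient's cluster make-up. The settings share most of their counts, and not every interval lay above 0. With TMM scaling the interval held 0 for Gbp3 [-0.04, 0.24] and Gbp7 [-0.01, 0.16]. Both also held 0 when cells with a marker UMI of another cell type were left out. For Gbp3 so did those with at least 1000 genes, at most 5% mitochondrial UMIs and the reduced totals named next. The log2 ratio of the sum was 0.23 with TMM scaling and 0.25 with totals without ribosomal, mitochondrial and receptor genes. At the recipient's make-up, an alternative chosen after seeing the data, it was 0.067, the median 0.055 and the count past the fold 0. The share of all features was not computed at that make-up. With genes centred within each library, this weighting gave a log2 ratio of the sum of 0.11. Members past the fold numbered 4 or 5 under every cell filter and scaling run. Features past the fold higher in the recipient made up 11.7% with at least 20 UMIs and 18.4% with at least 1 UMI in each library.

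The share of cells with at least 5 members depends on depth: thinned to 1000 UMIs it was 0.113% in the recipient and 0.0939% in the donor, thinned to 8000 (chosen after seeing the data; 1913 and 3576 cells) 19.8% and 13.7%, and with no thinning 17.4% and 14.1%. With at least 4 members it was 11.3% and 7.25%, with at least 6 members 1.42% and 0.912%, and with Tgtp1 and Tgtp2 as 1 member 2.89% and 1.81%. The recipient share was higher under every setting run, but at 1000 UMIs the intervals overlapped, at [0.0413, 0.245] in the recipient and [0.0378, 0.193] in the donor. No setting weighted this share to the recipient's cluster make-up.

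Correlations with Ly6a and the type I list were higher at greater depth; those with Ifit3 were 0.13 in the recipient with no thinning, and 0.12 in both libraries thinned to 8000 UMIs. With no thinning, r with Ly6a was 0.20 in the recipient and 0.22 in the donor, and in the donor r with Ifit3 was 0.16, with the type I list 0.26 and the pair median 0.091. Thinned to 8000 UMIs, r with Ly6a was 0.24 in the recipient and 0.24 in the donor, with the type I list 0.26 and 0.27, and the donor's pair median 0.096. By Spearman, donor values were 0.16 for Ly6a, 0.098 for Ifit3 and 0.17 for the type I list; within clusters they were 0.16 for Ly6a and 0.17 for the list. The highest over the lowest cluster was 1.965 in the recipient and 1.83 in the donor; it was 1.81 in the recipient at resolution 0.6, and 4.66 and 4.14 with interferon-induced genes kept.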
